A study of Liolophura hirtosa with 16 samples.

Results

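The comparison described here set iron-deposited radula teeth against foot muscle of the chiton Acanthopleura hirtosa, named Liolophura hirtosa in the sample records. It comprised 8 of the 16 arrays of the study, chosen by sample title: 4 arrays of the iron-depositing section of the radula sac and 4 arrays of foot muscle. All animals were wild, adult chitons, and no treatment was given. RNA of 12 animals was extracted tissue by tissue and combined into pools of 3 animals, with 4 pools per tissue, each hybridised to 1 array after labelling with Cy5. The other 8 arrays, of immature teeth and of calcium-deposited teeth, come from the same animals.

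The radula is the ribbon-like feeding organ of molluscs, on which rows of teeth form at one end and mature as they move towards the mouth. In chitons the new teeth are an organic, chitin-rich scaffold. Iron oxide is then laid down in the major lateral teeth until magnetite hardens the cusp, and a calcium mineral fills the core afterwards. The epithelium around the teeth supplies the iron, and ferritin, the iron storage protein, is known there. The foot is the muscular sole with which the animal clings to rock and forms no mineralised teeth, so that the comparison asks which transcripts of the iron-depositing section are more or less abundant than in a muscle of the same animals. Both samples are bulk tissue, in which fewer cells of a type and less RNA per cell cannot be told apart.

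The array held 2240 probes of 35 to 40 bases for 493 sequences, of which 109 were contigs and 384 were single clones. Most sequences had several probes, with 5 on 334 sequences and 4 on 122. The scanner tables pair each probe with a sequence name and with its own letters, but not with a gene. No gene name or function is therefore given to any sequence here, and the tissue labels could not be checked against marker genes such as those of muscle fibres or iron storage. Values are log2 intensities after background correction and quantile scaling of the 8 arrays, and the value of a sequence is the mean over its probes. Differences are iron-deposited teeth minus foot muscle on that log2 scale, so that 1 is a 2-fold and 4 a 16-fold difference in intensity. A sequence or probe is called where limma's adjusted p was under 0.05. The arrays separated by tissue: log2 values correlated at 0.961 to 0.983 among the iron-deposited arrays, 0.955 to 0.983 among the foot muscle arrays and 0.719 to 0.773 between tissues, over probes that share a library of sequences and are not independent.

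The 16 sequences that carried the clearest differences were taken by rule: 3 or more probes, every probe called in one direction, the 4 iron-deposited arrays all on one side of the 4 foot muscle arrays at every probe, and then the 8 with the widest difference in each direction. Of 471 sequences with 3 or more probes, 38 met the first criteria in the higher direction and 16 in the lower direction. One probe of each named sequence, the one with the median difference, is printed below in the letters of the scanner tables, with its place in the sequence as numbered in the probe name. The sources used here do not state the strand of the probes. The following 8 are the sequences higher in iron-deposited teeth, in order of their difference.
Contig[0058], bases 329 to 363 of 896: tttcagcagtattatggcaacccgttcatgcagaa
Contig[0018], bases 685 to 719 of 844: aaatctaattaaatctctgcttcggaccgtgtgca
Contig[0267], bases 625 to 659 of 834: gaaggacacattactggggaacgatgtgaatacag
Contig[0001], bases 214 to 248 of 853: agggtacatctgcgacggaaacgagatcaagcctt
PlateD-G3-5-SMART, bases 151 to 186 of 830: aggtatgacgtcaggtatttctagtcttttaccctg
Contig[0154], bases 130 to 167 of 881: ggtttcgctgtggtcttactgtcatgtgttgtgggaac
Contig[0064], bases 916 to 950 of 1228: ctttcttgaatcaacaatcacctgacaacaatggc
Contig[0158], bases 459 to 493 of 643: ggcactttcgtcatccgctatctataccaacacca

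The following 8 are the sequences lower in iron-deposited teeth than in foot muscle, again in order of their difference.
Contig[0222], bases 670 to 704 of 1045: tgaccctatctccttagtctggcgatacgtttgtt
Contig[0113], bases 117 to 151 of 767: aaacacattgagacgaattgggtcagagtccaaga
PlateD-C9-5-SMART, bases 301 to 335 of 830: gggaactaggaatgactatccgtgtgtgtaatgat
Contig[0097], bases 273 to 307 of 662: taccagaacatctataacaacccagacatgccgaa
Contig[0012], bases 233 to 267 of 871: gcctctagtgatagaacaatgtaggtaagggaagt
G-H11-5-SMART, bases 327 to 361 of 578: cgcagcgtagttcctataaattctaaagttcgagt
Contig[0026], bases 309 to 343 of 358: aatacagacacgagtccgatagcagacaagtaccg
Contig[0187], bases 724 to 762 of 1441: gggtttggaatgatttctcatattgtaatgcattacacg

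Of the sequences on this array, more were strongly raised than strongly lowered in iron-deposited teeth. Over 2-fold and called, 50 sequences were higher, 10.1% of the 493 tested, and 22 were lower, 4.46%. In all 50 and in all 22 of these, the 4 iron-deposited arrays lay entirely on one side of the 4 foot muscle arrays. Such separation was common on this array and is no separate support, because a difference over 2-fold is wide beside the spread within a tissue. The median SD of a sequence was 0.11 in iron-deposited teeth and 0.13 in foot muscle. Without a limit on size, separation held in 85 of the 90 sequences called higher and 181 of the 235 called lower. Among all 2240 probes, called or not, it held in 777. The asymmetry was wider at larger sizes. Over 4-fold, 22 sequences were higher and 5 lower, over 8-fold 11 were higher and 1 lower, and over 16-fold 5 were higher and 0 lower. The count over 16-fold depends on the background correction. Contig[0267], Contig[0001] and PlateD-G3-5-SMART were over 16-fold here, but at 3.42, 3.39 and 3.19 without that correction. With a smaller offset in it they were at 4.55, 4.47 and 4.56. Among sequences over 2-fold, the higher ones had a median difference of 1.91 and the lower ones of -1.46, beside a median of -0.20 over all sequences. By single probes, which are the same values before averaging and no separate support, the order was the same. Of 2240 probes, 207 were called and over 2-fold higher, 9.24%, and 112 were called and over 2-fold lower, 5.0%.

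**Figure D1:**
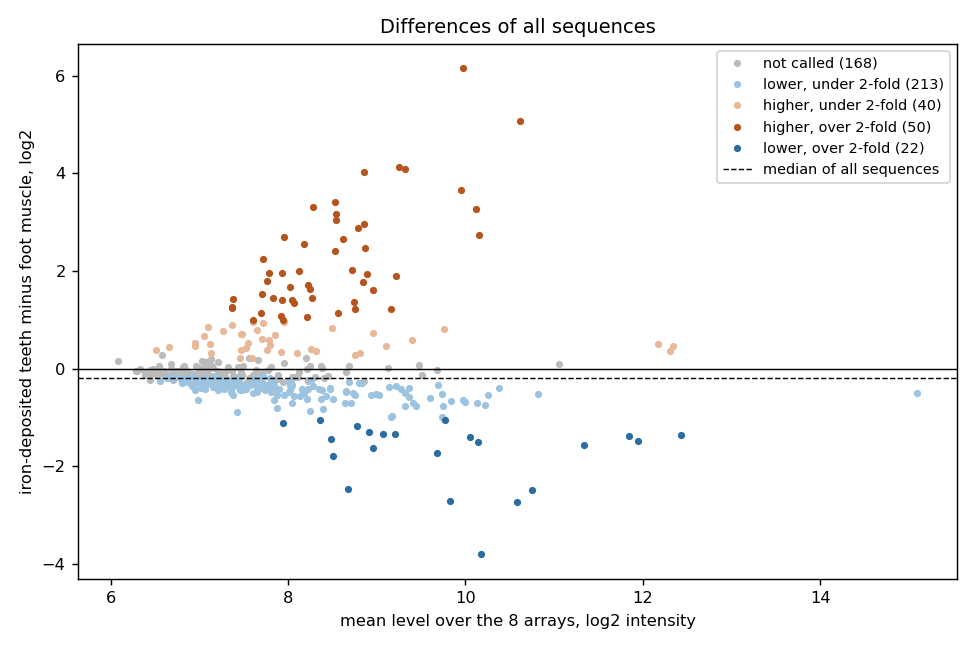
Difference of each of the 493 sequences (y axis, iron-deposited teeth minus foot muscle, log2) against its mean level over the 8 arrays (x axis, log2 intensity), coloured by call; the dashed line is the median of all sequences. The points over 2-fold reach 6.16 above 0 and -3.81 below it, and the many pale blue points lie close under 0.

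Without a limit on size, the balance turned. At an adjusted p under 0.05, 90 sequences were higher, 18.3%, and 235 were lower, 47.7%, with 326 probes higher, 14.6%, and 502 probes lower, 22.4%. The 213 lower sequences under 2-fold made up this surplus, and over all 235 lower calls the median difference was -0.36. The number of lower calls differed between scalings of the arrays. On the log2 scale of the deposited value table, which divides each array by its mean and has no background correction, limma called 348 probes and 95 sequences in all, of which 61 sequences were higher and 34 lower. Higher calls were 27.7% of called sequences under quantile scaling, against 64.2% in the value table, 63.2% after cyclic loess, 61.4% with differences centred on their median, 30.2% after median scaling and 15.9% after scaling on the 75th percentile. The median difference of all sequences was -0.20 under quantile scaling, -0.37 in the value table, -0.25 after median scaling, -0.61 after scaling on the 75th percentile and -0.07 after cyclic loess. The counts over 2-fold moved less, with 39 to 58 sequences higher and 12 to 26 lower over the settings tried.

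**Figure D2:**
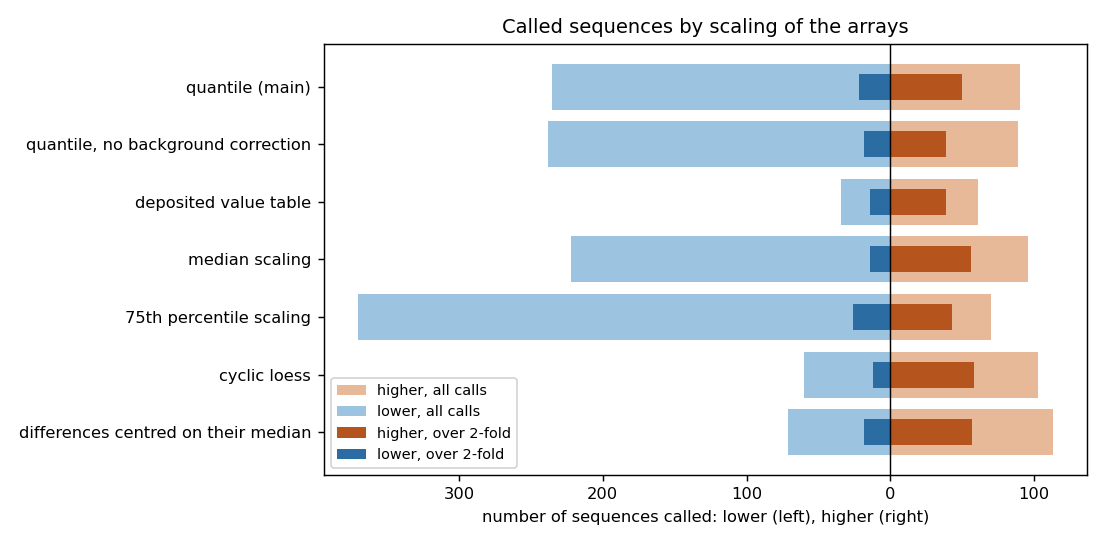
Number of called sequences (x axis, lower to the left and higher to the right of 0) under 7 scalings of the arrays (y axis); pale bars are all calls and dark bars those over 2-fold. Pale blue bars range from 34 to 370 sequences, while the dark bars range from 39 to 58 higher and from 12 to 26 lower.

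Contig[0058] had the widest difference of the named sequences. Its mean over 5 probes was 12.95, 12.81, 13.15 and 13.28 in the iron-deposited arrays, against 6.98, 7.07, 6.58 and 6.92 in the foot muscle arrays. All 4 iron-deposited arrays stood more than 5 log2 units above every foot muscle array. The difference was 6.16 (SE 0.124, adjusted p = 2.23e-12 by limma, n = 4 pools each). Without background correction it was 5.28. Over the alternative settings it ran from 5.25 on the value table to 6.78 with the median over probes. No probe could be called above background, and the size of the difference rests on dim foot muscle values, so that no fold in RNA is given. The rule of choice required the tissues to be apart at every probe. The printed probe of Contig[0058] had 13.56, 13.63, 13.63 and 13.84 in iron-deposited teeth and 7.21, 7.54, 6.88 and 7.47 in foot muscle.

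Contig[0018] came next, with 13.00, 13.36, 13.27 and 13.02 in iron-deposited teeth and 8.17, 8.21, 7.94 and 7.99 in foot muscle. Its difference was 5.08 (SE 0.102, adjusted p = 2.23e-12 by limma), with no overlap between the tissues, as the rule of choice required. Of its 4 probes, the one at bases 204 to 238 shares a stretch of 20 bases with a probe of Contig[0110] and showed the narrowest difference, 2.84, against 6.27, 4.80 and 6.41 at the other 3.

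Contig[0267] had 11.06, 11.18, 11.42 and 11.62 in iron-deposited teeth and 7.43, 7.15, 7.09 and 7.08 in foot muscle. Contig[0001] had 11.43, 11.25, 11.32 and 11.44 in iron-deposited teeth and 7.33, 7.53, 7.07 and 7.17 in foot muscle. The clone PlateD-G3-5-SMART had 10.84, 10.70, 10.98 and 10.95 in iron-deposited teeth and 6.79, 7.01, 6.61 and 6.98 in foot muscle. The tissues were fully apart in each of these sequences, as the rule of choice required. The differences were 4.13 (SE 0.124) for Contig[0267], 4.08 (SE 0.09998) for Contig[0001] and 4.02 (SE 0.101) for PlateD-G3-5-SMART.

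The remaining named sequences on the higher side were Contig[0154], Contig[0064] and Contig[0158]. Contig[0154] averaged 11.78 ± 0.07 in iron-deposited teeth and 8.11 ± 0.15 in foot muscle (SD, n = 4 each). Contig[0064] averaged 10.24 ± 0.33 in iron-deposited teeth and 6.82 ± 0.18 in foot muscle. Contig[0158] averaged 11.76 ± 0.04 in iron-deposited teeth and 8.48 ± 0.15 in foot muscle. Their differences were 3.67 (SE 0.0848), 3.42 (SE 0.150) and 3.28 (SE 0.0828) in that order, with limma's adjusted p at most 1.24e-09.

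On the lower side, Contig[0222] had 8.30, 8.26, 8.40 and 8.13 in iron-deposited teeth, against 12.21, 11.94, 12.04 and 12.13 in foot muscle. It was the one sequence over 8-fold lower, at -3.81 (SE 0.0841, adjusted p = 4.28e-12 by limma), and its arrays varied by less than 0.3 log2 units within each tissue.

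Contig[0113] had 9.17, 8.98, 9.36 and 9.32 in iron-deposited teeth and 11.57, 12.13, 12.28 and 11.83 in foot muscle, a difference of -2.74 (SE 0.144). PlateD-C9-5-SMART had 8.58, 8.36, 8.55 and 8.42 in iron-deposited teeth and 11.31, 11.07, 11.26 and 11.09 in foot muscle, a difference of -2.71 (SE 0.0832). Contig[0097] had 9.58, 9.41, 9.64 and 9.40 in iron-deposited teeth and 11.80, 12.09, 12.15 and 11.93 in foot muscle, a difference of -2.49 (SE 0.0938). In these sequences the highest iron-deposited array stayed more than 2 log2 units below the lowest foot muscle array, and the spread was widest among the foot muscle arrays of Contig[0113].

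The other named lower sequences differed by under 4-fold. Contig[0012] averaged 7.62 ± 0.13 in iron-deposited teeth and 9.40 ± 0.17 in foot muscle. Contig[0026] averaged 8.14 ± 0.11 in iron-deposited teeth and 9.77 ± 0.13 in foot muscle. G-H11-5-SMART averaged 8.81 ± 0.36 in iron-deposited teeth and 10.55 ± 0.42 in foot muscle (SD, n = 4 each). Contig[0187] averaged 10.55 ± 0.34 in iron-deposited teeth and 12.12 ± 0.32 in foot muscle. G-H11-5-SMART and Contig[0187] thus had the widest spread of the 16 sequences, though by the rule of choice their tissues did not overlap. Their differences were -1.73 (SE 0.209, adjusted p = 1.93e-05 by limma) and -1.58 (SE 0.181, adjusted p = 1.27e-05 by limma).

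**Figure D3:**
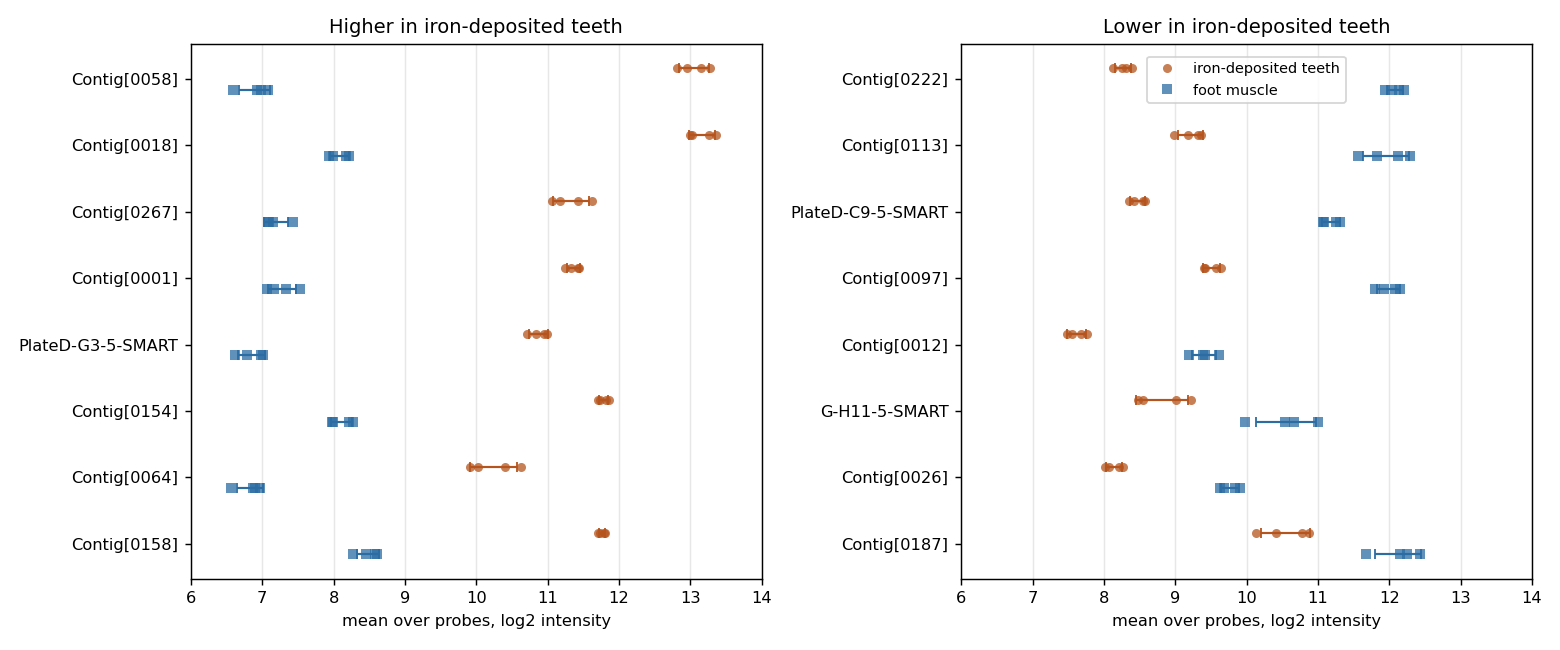
Mean over probes (x axis, log2 intensity) of the 16 named sequences (y axis) in each of the 4 iron-deposited arrays (brown circles) and the 4 foot muscle arrays (blue squares), with bars of 1 SD about the mean. By the rule of choice, the tissues do not overlap in any row. The gap is widest in Contig[0058] on the left and in Contig[0222] on the right.

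All 16 sequences kept their direction and their call in each of the 24 alternative settings in which they were fitted. These settings reuse the arrays that the rule of choice drew on, so that this is no separate support. Each of the 4 slide sectors held 1 array of either tissue. The direction within a sector was thus fixed by the rule of choice, which required tissues that did not overlap. Leaving out background correction narrowed the differences of some higher sequences by over 1.5 times in fold: to 5.28 for Contig[0058], 3.42 for Contig[0267], 3.39 for Contig[0001], 3.19 for PlateD-G3-5-SMART and 2.61 for Contig[0064].

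Probes of a sequence share their target, and the size of a difference varied among them. Of the 471 sequences with 3 or more probes, all probes were called higher in 42 and all lower in 21. No probe was called in 127, some probes in one direction in 276 and probes in both directions in 5. In the median sequence the probes differed by 0.59 in their log2 differences, in the median sequence over 2-fold higher by 1.84, and in the median sequence over 2-fold lower by 0.84.

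In Contig[0154] the difference widened along the sequence. Its probe at bases 17 to 51 differed by 1.16 (SE 0.216), that at bases 66 to 103 by 2.88, that at bases 130 to 167 by 3.37, that at bases 241 to 275 by 5.04 and that at bases 737 to 771 by 5.89 (SE 0.165). Each further probe thus had a wider difference than the one before. The probes at bases 17 to 51 and 66 to 103 were also the dimmest in iron-deposited teeth, at 8.67 and 8.77. The later probes averaged 14.91, 13.26 and 13.28 there. The part of that level in the order was not tested. The median of the probe values of each array, taken in place of the mean, gave a difference of 5.48 for this sequence, against 3.67 with the mean. That median can fall on different probes in the tissues. By probe means, the middle level was 13.26 at bases 241 to 275 in iron-deposited teeth, but 7.51 at bases 17 to 51 in foot muscle. The value of 5.48 is therefore not a typical probe difference, and the middle one of the 5 probe differences was 3.37. In Contig[0058] no such order was seen. Its 5 probes differed by 4.69, 6.80, 6.39, 4.68 and 8.22 from the first to the last. Of the 8 named higher sequences, Contig[0064] had the narrowest range of probe differences, from 3.19 to 3.97.

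On the lower side, the 5 probes of Contig[0222] differed by -4.25, -3.56, -3.27, -3.95 and -4.01, and those of Contig[0097] by -2.23 to -2.74. In Contig[0113] the differences ran from -3.03 at bases 49 to 83 to -2.16 at bases 549 to 585. Over all sequences with 3 or more probes, the last probe had a wider difference than the first in 26 of the 48 over 2-fold higher and in 7 of the 20 over 2-fold lower.

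**Figure D4:**
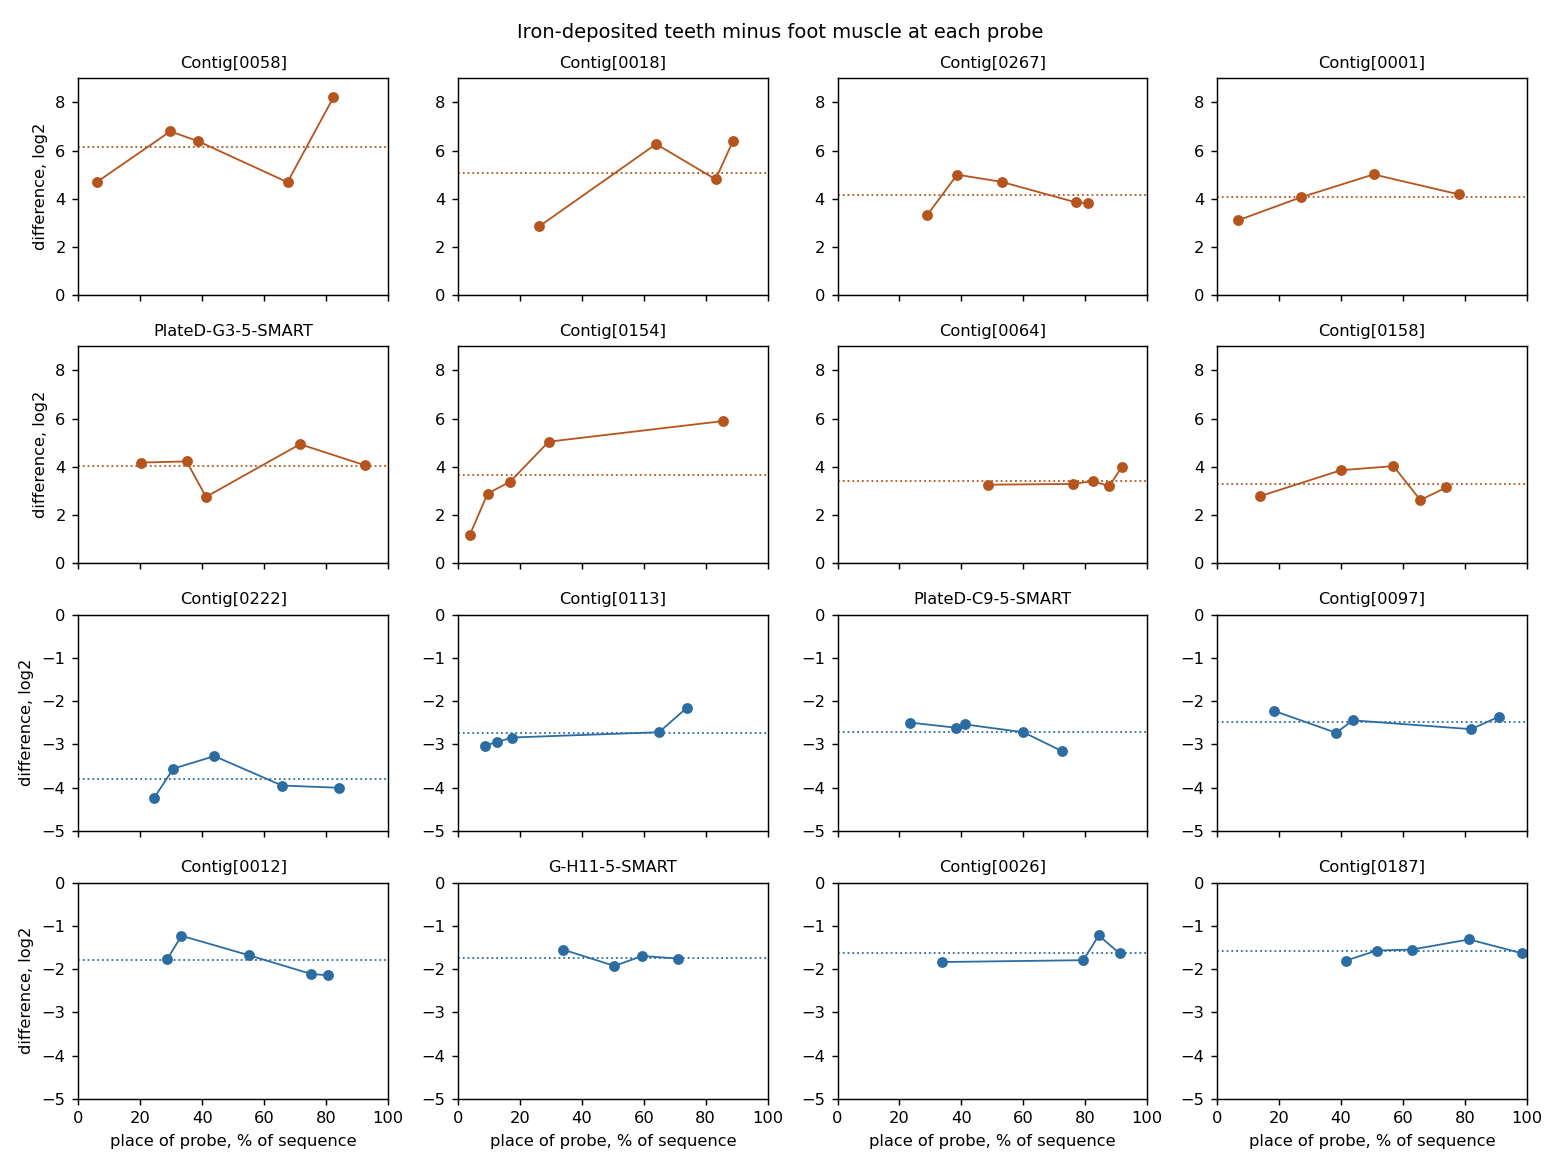
Difference of each probe (y axis, iron-deposited teeth minus foot muscle, log2; axes differ between upper and lower panels) against its place (x axis, percent of the sequence length) for the 16 named sequences; the dotted line is the sequence's own difference. Contig[0154] climbs from 1.16 to 5.89, while Contig[0097] stays within -2.23 to -2.74.

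Probes called in opposite directions within a sequence were rare, and the 4 sequences with the widest gap are given here. In Contig[0059] the probe at bases 17 to 51 fell by 0.73 (adjusted p = 0.00593 by limma) and the one at bases 425 to 459 rose by 0.96 (adjusted p = 0.000214 by limma), with 3 uncalled probes between them. In Contig[0099] the probe at bases 867 to 901 fell by 0.67 and 3 further probes rose by 0.53, 0.60 and 0.83. In Plate-A-C5-5-SMART the probe at bases 149 to 183 fell by 0.88 and that at bases 439 to 477 rose by 0.54. In Plate-B-A12-5-SMART the probe at bases 9 to 48 fell by 0.70 and that at bases 85 to 121 rose by 0.61. In Contig[0059], Plate-A-C5-5-SMART and Plate-B-A12-5-SMART the sequence means, at 0.12, -0.02 and 0.05, were not called, so that a mean over probes hid these opposed probes. All of these probes were under 2-fold.

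Other sequences were bright in both tissues and nearly level between them. In 228 sequences of the 471 with 3 or more probes the interval of 95% for the difference lay within 0.5 of 0 on the log2 scale. The brightest by mean over the arrays was PlateC-D5-5-SMART, with 11.32, 11.17, 10.90 and 11.03 in iron-deposited teeth and 11.08, 11.06, 11.02 and 10.91 in foot muscle. These values interleave, and the difference was 0.09 with an interval from -0.11 to 0.30. Plate-A-B11-5-SMART differed by -0.13 (interval -0.30 to 0.05), Plate-C-D1-5-SMART by 0.07 (-0.15 to 0.28) and PlateA-G3-5-SMART by 0.01 (-0.22 to 0.23). The mean of Plate-C-D1-5-SMART covers a probe at bases 97 to 131 that was called higher, by 0.60 (adjusted p = 0.00296 by limma). Its other probes were not called. The intervals of Plate-A-B11-5-SMART and PlateA-G3-5-SMART held the median of all sequences, -0.20, and those of PlateC-D5-5-SMART and Plate-C-D1-5-SMART lay just above it.

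Sequences named as contigs were more often among the wide differences than single clones. Of 109 contigs, 22.9% were over 2-fold higher and 11.01% over 2-fold lower. Of 384 clones, 6.51% were over 2-fold higher and 2.60% over 2-fold lower. Contigs were thus 25 of the 50 sequences over 2-fold higher and 12 of the 22 over 2-fold lower, while they made up 22.1% of all sequences. Contigs were also brighter, with a median level over the 8 arrays of 8.22, against 7.39 for clones, and the part of that level in the shares was not tested. The shares are a description of this array, whose contigs and clones come from a library that the sources used here do not describe. Across probes, GC content correlated with the mean level at r = 0.34 and with the difference at r = -0.0047, as a description over probes that are not independent.

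Some probes of different sequences share long stretches of bases, so that their values cannot be taken as independent. A shared stretch of 20 or more bases was found in 11 pairs of sequences, and 1 of the 16 named sequences was among them. The stretch shared by Contig[0018] and Contig[0110] is in capitals below.
Contig[0018], bases 204 to 238: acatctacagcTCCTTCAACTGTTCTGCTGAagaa
Contig[0110], bases 302 to 336: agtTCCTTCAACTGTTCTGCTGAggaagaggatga

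At these probes Contig[0018] averaged 11.62 in iron-deposited teeth and 8.78 in foot muscle, while Contig[0110] averaged 8.39 in iron-deposited teeth and 8.42 in foot muscle. The difference of 2.84 in the first was thus beside -0.02 (adjusted p = 0.925 by limma) in the second, despite the shared bases. Contig[0110] as a whole differed by 0.39 (SE 0.0808).

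Among sequences lower in iron-deposited teeth, Contig[0021], Contig[0021]_a and Plate-C-F1-5-SMART shared bases with each other. The 34 bases common to the contigs are in capitals below.
Contig[0021], bases 60 to 94: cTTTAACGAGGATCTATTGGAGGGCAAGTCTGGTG
Contig[0021]_a, bases 60 to 94: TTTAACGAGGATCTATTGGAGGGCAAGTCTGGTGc

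Contig[0021] averaged 9.25 ± 0.11 in iron-deposited teeth and 10.23 ± 0.08 in foot muscle. Contig[0021]_a averaged 8.68 ± 0.15 in iron-deposited teeth and 9.66 ± 0.12 in foot muscle. Their differences were both -0.98 and that of Plate-C-F1-5-SMART was -0.83 (SE 0.173), all under 2-fold. In Plate-C-F1-5-SMART 2 of 4 probes were called lower. Its probes that share these bases were not called, at -0.77 (adjusted p = 0.0632 by limma) and -0.64 (adjusted p = 0.0739 by limma).

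The radula sections show where along the ribbon the named sequences set iron-deposited teeth apart. The deposited sources disagree on 4 arrays of immature and calcium-deposited teeth, which were left out, so that 2 arrays remained for each of those sections beside 4 of iron-deposited teeth and 4 of foot muscle. These contrasts set section against section, share the iron-deposited arrays with the comparison above, and come from a fit over all 12 arrays, in which the foot muscle arrays entered the scaling and the estimate of the spread. Over all 493 sequences, 14.2% were called higher and 11.2% called lower in iron-deposited teeth when set against immature teeth, and 10.8% higher and 16.8% lower when set against calcium-deposited teeth. Of the 16 named sequences, 9 were higher and 3 lower than in immature teeth, and 7 higher and 8 lower than in calcium-deposited teeth.

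Among the sequences higher than in foot muscle, 6 were also higher than in either other section. Contig[0058] had 10.65 and 10.70 in immature teeth, 12.93 to 13.38 in iron-deposited teeth, 7.84 and 8.05 in calcium-deposited teeth and 6.61 to 7.10 in foot muscle. It was 2.48 (SE 0.146) above immature teeth and 5.21 above calcium-deposited teeth, so that the iron-deposited section stood at the top, immature teeth next and calcium-deposited teeth after them, with arrays that did not overlap those of foot muscle. Contig[0267] and Contig[0064] also had their top in iron-deposited and their second level in immature teeth, with 9.39, 11.49 and 7.13 in the immature, iron-deposited and calcium-deposited sections and 7.22 in foot muscle for Contig[0267], and 8.92, 10.39 and 6.77 in the sections and 6.85 in foot muscle for Contig[0064]. Contig[0154] and Contig[0158] also peaked in iron-deposited teeth, by 2.44 and 2.26 over immature teeth and by 2.09 and 2.72 over calcium-deposited teeth.

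PlateD-G3-5-SMART showed another order. It had 6.36 and 6.67 in immature teeth, 10.85 to 11.15 in iron-deposited teeth, 9.08 and 9.29 in calcium-deposited teeth and 6.65 to 7.04 in foot muscle. The immature arrays thus overlapped the range of foot muscle, iron-deposited teeth were 4.52 (SE 0.134, adjusted p = 9.32e-12 by limma) above them, and calcium-deposited teeth lay between.

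Every section was far above foot muscle in Contig[0018] and Contig[0001]. Contig[0018] averaged 13.01 in immature teeth, 13.27 in iron-deposited teeth, 11.74 in calcium-deposited teeth and 8.14 in foot muscle, and the step of 0.25 over immature teeth was not called (interval -0.07 to 0.58). Contig[0001] averaged 12.66 in immature teeth, 11.54 in iron-deposited teeth, 11.93 in calcium-deposited teeth and 7.31 in foot muscle. It fell by 1.12 in iron-deposited teeth against immature teeth and by 0.39 against calcium-deposited teeth, although all 4 iron-deposited arrays were far above the foot muscle arrays.

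Among the sequences lower than in foot muscle, Contig[0222], Contig[0113] and PlateD-C9-5-SMART climbed from section to section. Contig[0222] averaged 6.84 in immature teeth, 8.32 in iron-deposited teeth, 10.41 in calcium-deposited teeth and 12.26 in foot muscle, and Contig[0113] averaged 7.80, 9.32, 9.94 and 12.12 in that order. For Contig[0222] iron-deposited teeth rose by 1.49 (SE 0.113) against immature teeth and fell by 2.09 against calcium-deposited teeth. PlateD-C9-5-SMART moved by less within the radula, with a difference of 0.35 against immature and of -0.91 against calcium-deposited teeth.

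Contig[0097] had its lowest level in iron-deposited teeth. It had 11.81 and 11.73 in immature teeth, 9.51 to 9.75 in iron-deposited teeth, 10.36 and 10.54 in calcium-deposited teeth and 11.90 to 12.30 in foot muscle. Immature teeth lay just under foot muscle there, and iron-deposited teeth fell by 2.15 against immature teeth and by 0.83 against calcium-deposited teeth. Contig[0012] was also lowest in iron-deposited teeth, where it fell by 0.49 against immature and by 1.29 against calcium-deposited teeth. G-H11-5-SMART and Contig[0026] were called only against calcium-deposited teeth, at -1.02 (SE 0.319) and -1.03 (SE 0.107). Contig[0187] was called against neither section, with intervals from -0.13 to 1.14 against immature and from -1.28 to -0.01 against calcium-deposited teeth.

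**Figure D5:**
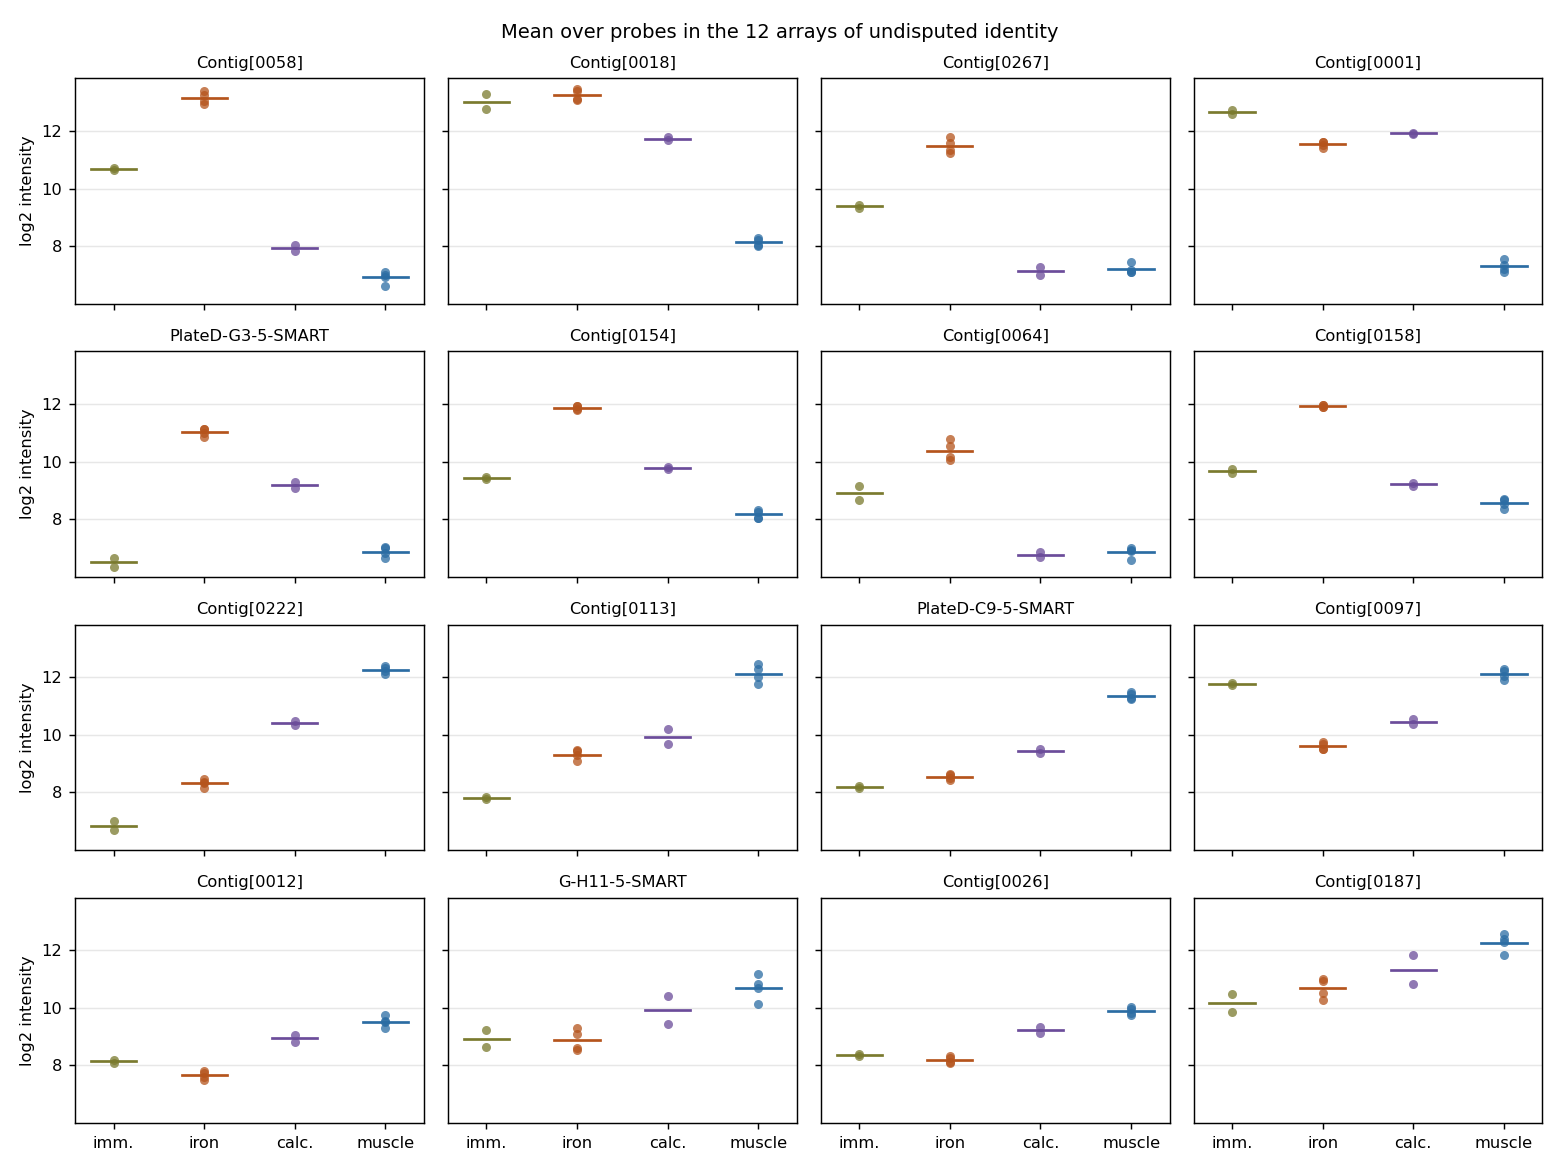
Mean over probes (y axis, log2 intensity, from 12 arrays quantile-scaled together) of the 16 named sequences in immature teeth (imm., 2 arrays), iron-deposited teeth (iron, 4), calcium-deposited teeth (calc., 2) and foot muscle (4); points are arrays and lines are means. Contig[0058] peaks at 13.16 in iron-deposited teeth, PlateD-G3-5-SMART is near foot muscle in immature teeth, and Contig[0097] dips to 9.62 in iron-deposited teeth.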

How the data were processed

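Per the labels' protocols, Trizol was used for RNA extraction and the Kreatech ampULSe kit for Cy5 labelling. Per the file headers, each array's table holds linear mean and median foreground intensity per spot. Background, controls and detection flags are not among its columns, so that no probe could be called above background and differences of dim probes are understated. A second table deposited by the authors holds a ratio per probe, as its match to the scanner values showed: the mean foreground of a probe over the mean of its array. For the 8 arrays used, table and scanner values agreed (SD of the log2 ratio at most 1.8e-09), and median foreground lay between 200.1 and 424. The number of table columns that could not be mapped to a sample was 0. Spots at the scanner maximum, 8 values on 2 probes of Contig[0011], were kept.

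Mean foreground went through normexp with an offset of 50, log2 and quantile scaling over the 8 arrays, and was tested two-sided with lmFit and eBayes (R 4.3.3, limma 3.58.1), per probe and on the mean over the probes of a sequence. Adjusted p-values are Benjamini-Hochberg over all 2240 probes or 493 sequences. The fit was checked on simulated data. The simulated noise was independent between probes, so that noise shared by probes of a sequence was not covered. Groups and replicate numbers came from the sample titles. Immature and calcium-deposited replicates 2 and 4 are swapped between value table and scanner files and were not used for the contrasts of sections. The p-values measure the spread between pools of 3 animals. Whether pools of the same number hold the same animals is not stated. Their deviations from the tissue means correlated at 0.567, 0.107, 0.365 and 0.356, all over the minimum of 0.1 set for pairing. However, iron-deposited array 4 correlated more with foot muscle array 2, at 0.560, and iron-deposited array 2 more with foot muscle array 4, at 0.270. Each of these pairs shared a slide sector.

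Beside the 8 sequences named in each direction, the 4 with the widest gap between probes called in opposite directions and the 4 brightest with an interval within 0.5 of 0 were named. Members, lists and rules were chosen with earlier results of these data known.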

Additional observations from a re-analysis of the deposited data

Results flagged for a closer look

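Among the 24 named sequences with their printed probes, 96 groups of 4 arrays were examined for an array far from the others, and 1 stood out. At the probe of G-H11-5-SMART at bases 327 to 361, foot muscle replicate 1 was at 11.05, against 11.99 to 12.08 in the other 3 foot muscle arrays. It was still above all 4 iron-deposited arrays, which reached 10.72 at most. Such a gap is passed by chance in about 1 of 20 groups.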

How the results depend on the processing

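Lower calls differed between scalings of the arrays. Lower probes, 502 as reported, were 112 in the value table, which also lacks the background correction, 266 after median scaling, 1452 after scaling on the 75th percentile and 162 after cyclic loess. Lower sequences, 235 as reported, were 34 in the value table, 370 on the 75th percentile, 60 after cyclic loess and 125 with the median over probes. At an adjusted p under 0.01, 312 probes and 138 sequences were lower. With differences centred on their median, a setting added after seeing the data, 313 probes and 71 sequences were lower. With over 2-fold required, 207 probes were higher and 112 lower, and 50 sequences were higher and 22 lower. The remaining counts, 90 of 106, stayed within 1.5 times. Higher calls, 90 sequences as reported, were 88 to 91 with an array left out. Leaving out an array gave 300 to 328 higher and 397 to 494 lower probes, and 178 to 235 lower sequences. With the replicate number as a block (pairing), 354 probes were higher and 653 lower, and 94 sequences were higher and 279 lower. No call of a named sequence changed, which the rule of choice made likely. With the sector as a block, 92 sequences were higher and 257 lower. All 16 arrays assigned as in the value table gave 9 named sequences higher and 3 lower against immature teeth, and 7 higher and 9 lower against calcium-deposited teeth. With 4 pools a tissue, no background measurement and no gene names, small differences, dim probes and functions are beyond these data.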
